A study of Mus musculus with 28 samples.

Results

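Semaphorins, plexins and neuropilins were followed over 7 ages of mouse visual thalamus. The 31 genes were those of the 26581 in the deposited tables whose symbol names a semaphorin of class 3 to 7, a plexin of class A to D or a neuropilin. They comprised 20 semaphorins (7 of class 3, 6 of class 4, 2 of class 5, 4 of class 6 and Sema7a), 9 plexins (4 of class A, 3 of class B, Plxnc1 and Plxnd1) and the 2 neuropilins. All 31 were listed in every comparison and passed the filter on low counts in every one. The tissue was the dLGN (dorsal lateral geniculate nucleus), which relays retinal signals to visual cortex, microdissected from untreated C57BL/6J mice of both sexes in standard housing. Ribosome-depleted total RNA was sequenced at embryonic day 18 (E18) and postnatal days 4, 10, 16, 20, 27 and 32 (P4 to P32), with 4 libraries per age and 28 in all. No group carried an allele or a drug, and the groups are defined by age alone. Mice open their eyes shortly before the second week of life ends, between the P10 and P16 samples.

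Library totals ran from 8224851 to 40206549 reads, so that 3 counts, the floor used for a gene at 0, stood for 0.0746 to 0.365 CPM (read counts scaled to library size). The share of mitochondrial reads ran from 1.37% to 21.8%. P27 library 6 and P32 library 6 held fewer detected genes (16938 and 19117) than any other library (21028 to 24149). A library is named here by its age and its column number, 3 to 6. Relay neuron markers were present at every age, with none at 0 in all 4 libraries of an age and a summed level of 1793 to 6843 CPM at P32, against 2736 to 3819 CPM at E18. Of the 12, 3 were higher and 6 lower at P32 than at E18 (median log2 fold change -0.40), and Rora alone averaged 1638 of the 4827 CPM at P32. P32 library 3 stood apart, with the lowest relay neuron sum (1793 CPM) and an inhibitory neuron sum of 2399 CPM, where the other P32 libraries held 351 to 368 CPM. The relay neuron sum was also lowest in library 3 at P16 (2363 CPM), P20 and P27. At these ages library 3 also held the highest inhibitory neuron sum, with 1132, 2060 and 876 CPM. The others held 210 to 428, 510 to 814 and 374 to 493 CPM. P10 library 5 held an inhibitory neuron sum of 785 CPM, where the other P10 libraries held 135 to 171 CPM. Its relay neuron sum was the lowest of P10 (2768 CPM). Choroid plexus markers summed to 226 to 1139 CPM at E18 and 80.8 to 104 CPM at P4. Red blood cell markers summed to 226 to 677 and 42.8 to 67.2 CPM. By P32 the choroid plexus sum averaged 533 CPM, with 505 CPM from Enpp2. At P32 against E18, 7 of 10 choroid plexus, 5 of 6 red blood cell and 7 of 11 cortex and hippocampus markers were lower. Of these lists 1, 0 and 2 were higher. Of all genes 24.1% were lower and 23.4% higher. The part of these lists in the results was not tested. The labels call the 4 mice of an age independent samples, yet Xist and Y-linked reads occurred together in 5 libraries, P27 library 5 and the 4 of E18. Pooling of animals in those 5, not given in the sources used here, would go against the labels, and n counts libraries. All 4 P4 libraries held Xist and almost no Y-linked reads, so sex make-up differed between ages. Because the libraries are bulk tissue, fewer cells of a type and less RNA per cell cannot be told apart.

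Semaphorins are secreted or membrane-bound guidance cues that steer growing axons, often by repulsion, and plexins are their main receptors. Most class 3 semaphorins are secreted and need a neuropilin as the binding partner of a class A plexin, while Sema3e can bind Plxnd1 directly. Membrane-bound class 4 semaphorins signal mainly through class B plexins, class 6 through class A plexins, Sema5a through Plxnb3 and class A plexins, and Sema7a, which is anchored by a lipid, through Plxnc1 and integrins. The same molecules are known from retinal and thalamic axon guidance and, later in life, from synapse formation, oligodendrocyte development and blood vessel growth.

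Most receptor genes were lower at P32 than at E18, and the ligand genes moved in both directions. Of the 11 receptors, 7 were lower and 1 was higher at P32 than at E18, and of the 20 ligands 6 were higher and 6 lower (edgeR's quasi-likelihood test with Benjamini-Hochberg adjustment over all genes, adjusted p under 0.05, here and below). Over all 31 genes 7 were higher (22.6%) and 13 lower (41.9%) at P32, beside 23.4% higher and 24.1% lower (47.5% in either direction) of the 19989 genes tested. With total-count scaling the split of all tested genes was 3507 higher and 6385 lower, against 4675 and 4824, while the members' counts were the same. The 7 higher at P32 were Plxnb3, Sema3d, Sema5a, Sema4d, Sema7a, Sema3c and Sema6d (log2 fold changes 5.41 to 0.82). The 13 lower were Sema3a, Sema6c, Plxna1, Plxna3, Sema4c, Plxnc1, Nrp2, Plxna2, Sema3f, Plxnb2, Nrp1, Sema4f and Sema4b (-2.89 to -0.70). The remaining 11 members were not called in that contrast, and no library of P32 overlapped one of E18 for any of the 20 called. How often this held for called genes outside the family was not counted. Without P32 library 3, Sema3c was lost and Sema6b gained (adjusted p = 0.0557 and 0.0404). The median log2 fold change was -1.23 over the receptors, -0.037 over the ligands and -0.038 over all genes tested. By mean level, 11 of the 31 genes were highest at E18, 1 at P4, 7 at P10, 5 at P16, 4 at P20, 1 at P27 and 2 at P32.

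**Figure D1:**
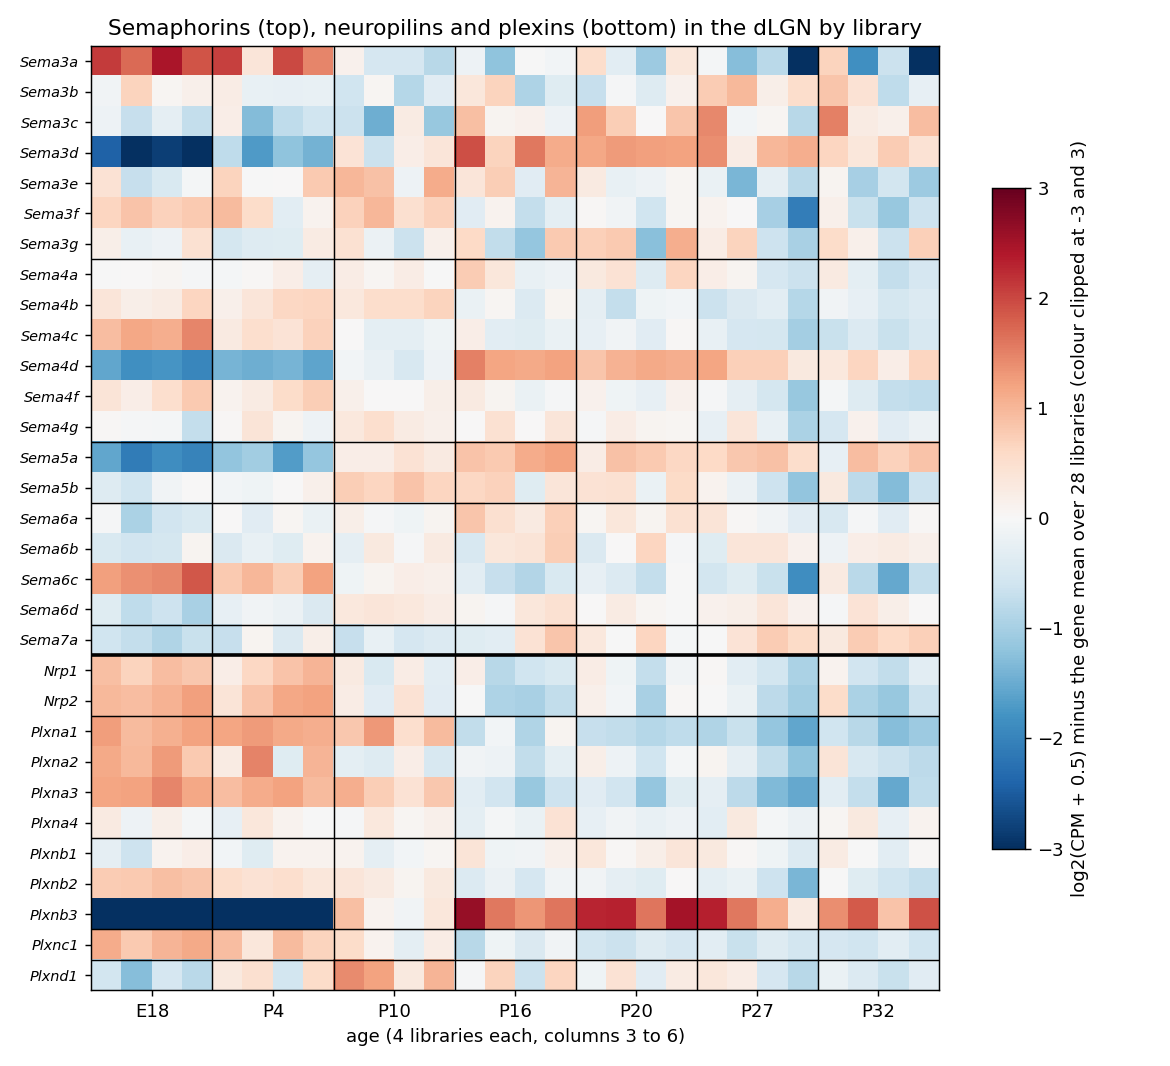
Heat map of the 31 genes (rows, by class, semaphorins above the thick line) in the 28 libraries (columns, by age). Colour is log2(CPM + 0.5) minus the gene's mean over the 28 libraries, so that red marks libraries above and blue below that mean. Plxnb3, Sema3d, Sema4d and Sema5a are blue at E18 and P4, and Sema3a, Sema6c, Plxna1 and Plxna3 are red there.

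The calls fell in the first 3 intervals. At P4 against E18, 2 members were higher (Sema3d and Plxnd1; 6.45%) and 1 lower (Sema4c; 3.23%), beside 4.75% and 3.12% of all 18797 genes tested (7.87% in either direction). At P10 against P4, 6 were higher (Plxnb3, Sema5a, Sema3d, Sema4d, Sema5b and Sema6d; 19.4%) and 5 lower (Sema3a, Nrp2, Sema6c, Nrp1 and Sema4c; 16.1%), beside 10.3% and 8.16% of 17717 genes (18.4% in either direction). At P16 against P10, 4 were higher (Plxnb3, Sema4d, Sema3d and Sema5a; 12.9%) and 6 lower (Plxna3, Plxna1, Sema3f, Sema6c, Sema4b and Plxnb2; 19.4%), beside 6.2% and 5.65% of 17474 genes (11.9% in either direction). Without P16 library 3, Plxnb2 and Sema4b were lost and Nrp2 and Sema7a gained (adjusted p = 0.0533, 0.0526, 0.0171 and 0.0301). The median log2 fold change of the members was 0.0085 at P4, 0.071 at P10 and -0.090 at P16, beside -0.022, -0.010 and 0.0054 over all genes. With total-count scaling the members' counts were 1 and 1, 6 and 6, and 3 and 6 in these intervals. The splits of all genes were then 613 higher and 686 lower at P4 (against 893 and 586), 1357 and 1695 at P10 (against 1821 and 1446), and 798 and 1238 at P16 (against 1084 and 987).

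Same-numbered libraries deviated together in the first 2 intervals, as did some differently numbered ones. A fit with the column number as a block stands beside them, though what the number stands for is not known. It called 8 members higher and 5 lower at P4, beside 15.8% and 13.6% of all genes under that fit. The 10 added at P4 were Sema3e, Sema4d, Sema5a, Sema6a, Sema6d and Sema7a among the higher and Sema3a, Sema6c, Plxnb2 and Plxnc1 among the lower. At P10 the blocked fit called 8 higher and 6 lower, beside 18% and 18.1% of all genes, and added Plxnd1 and Sema6b (higher) and Plxnc1 (lower).

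**Figure D2:**
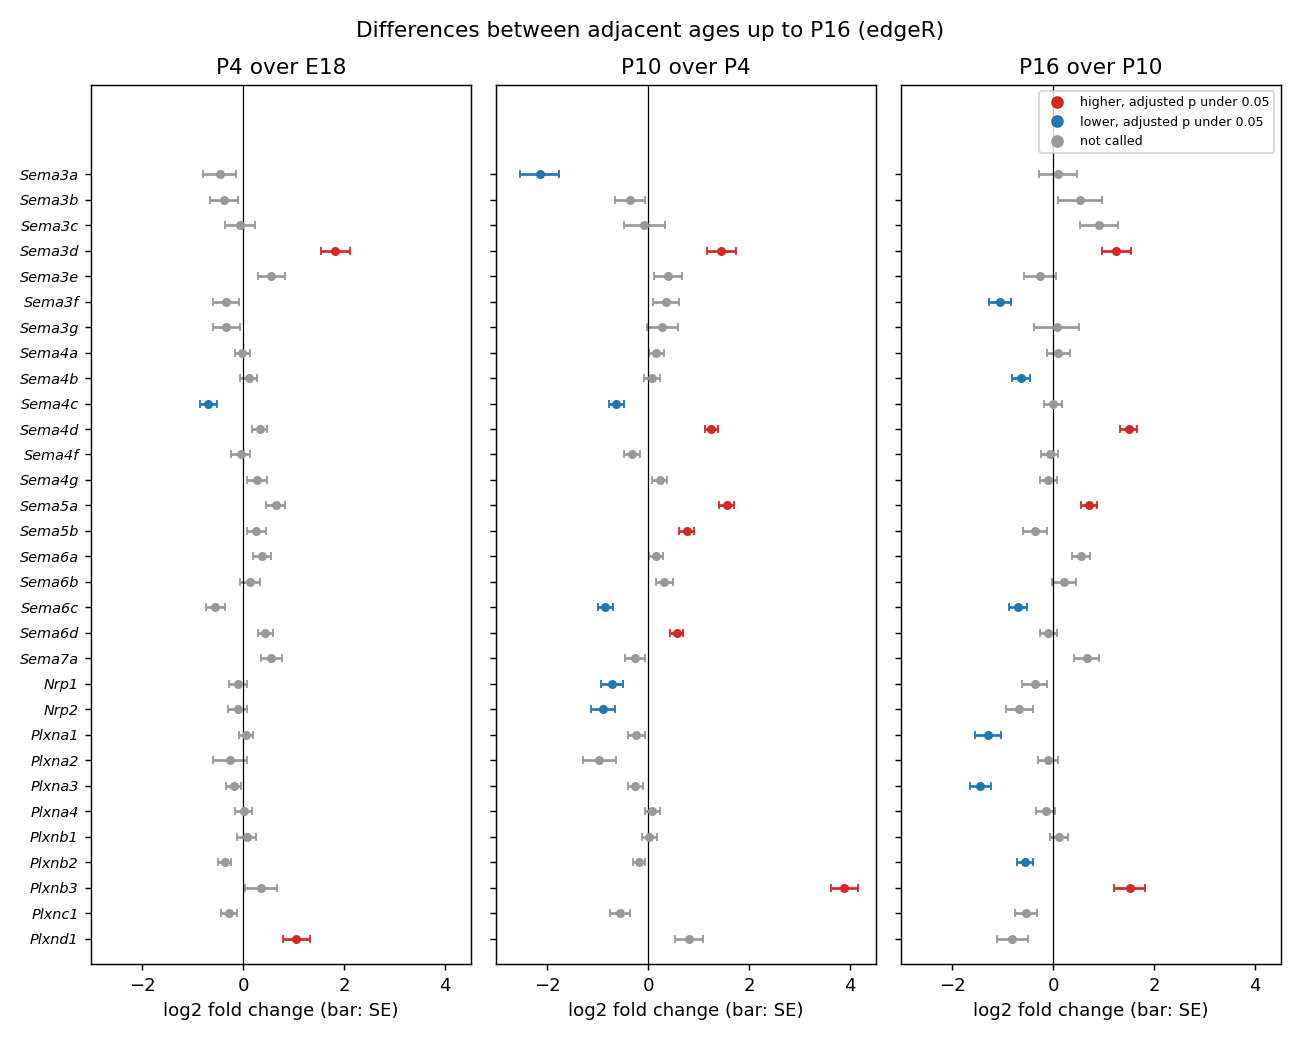
Log2 fold change of each gene between adjacent ages (later over earlier), with its standard error, for P4 over E18 (left), P10 over P4 (centre) and P16 over P10 (right). Red points are higher and blue points lower at adjusted p under 0.05, and grey points were not called. The largest values are those of Plxnb3 (3.88) and Sema3a (-2.14) at P10 over P4.

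The promoters of the 5 members called in the same direction at both P10 and P16 are shown because these genes moved over 2 intervals. Plxnb3, Sema3d, Sema4d and Sema5a rose in both and Sema6c fell in both. The sequences are RefSeq's 300 bases per start site (250 before and 50 after the start, GRCm38.p6), and 26 of the 31 members matched an entry. For Sema4d, with 3 listed starts, and Sema6c, with 2, the start nearest to the deposited gene's 5′ end is given, which for Sema4d lies well inside the deposited gene, not at its 5′ end. The window of Plxnb3, with 1 listed start, also lies wholly inside the deposited gene, which starts at chrX:73756559. Capitals mark matches, on either strand, to the E-box motif CAGCTG, the SOX core motif ACAAAG, the GC-box motif GGGCGG and the TATA-box motif TATAAA, with overlapping matches run together.
Plxnb3, chrX:73756853-73757152, plus strand: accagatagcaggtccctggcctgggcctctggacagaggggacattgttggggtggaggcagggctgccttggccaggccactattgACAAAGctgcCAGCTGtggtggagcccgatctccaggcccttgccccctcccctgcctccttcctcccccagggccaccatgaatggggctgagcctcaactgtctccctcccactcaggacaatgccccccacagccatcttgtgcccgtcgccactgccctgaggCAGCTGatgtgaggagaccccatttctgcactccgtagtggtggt
Sema3d, chr5:12382916-12383215, plus strand: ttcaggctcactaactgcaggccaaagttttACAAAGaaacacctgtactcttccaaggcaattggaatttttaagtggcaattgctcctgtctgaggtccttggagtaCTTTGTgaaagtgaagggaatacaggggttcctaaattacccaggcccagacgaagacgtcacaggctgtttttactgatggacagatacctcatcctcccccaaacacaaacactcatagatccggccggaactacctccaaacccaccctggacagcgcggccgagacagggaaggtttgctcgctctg
Sema4d, chr13:51756634-51756933, minus strand: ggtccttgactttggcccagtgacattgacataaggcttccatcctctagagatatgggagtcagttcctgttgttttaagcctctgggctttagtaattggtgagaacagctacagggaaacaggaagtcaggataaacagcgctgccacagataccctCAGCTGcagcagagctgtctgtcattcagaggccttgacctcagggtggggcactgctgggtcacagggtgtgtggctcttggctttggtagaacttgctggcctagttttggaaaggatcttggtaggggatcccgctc
Sema5a, chr15:32244563-32244862, plus strand: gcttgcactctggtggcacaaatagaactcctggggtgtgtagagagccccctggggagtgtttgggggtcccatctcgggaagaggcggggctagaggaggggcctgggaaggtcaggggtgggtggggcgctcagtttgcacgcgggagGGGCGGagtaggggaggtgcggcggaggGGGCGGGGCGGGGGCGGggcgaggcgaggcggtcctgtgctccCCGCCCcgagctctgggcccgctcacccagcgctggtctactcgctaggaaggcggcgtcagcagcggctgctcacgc
Sema6c, chr3:95160170-95160469, plus strand: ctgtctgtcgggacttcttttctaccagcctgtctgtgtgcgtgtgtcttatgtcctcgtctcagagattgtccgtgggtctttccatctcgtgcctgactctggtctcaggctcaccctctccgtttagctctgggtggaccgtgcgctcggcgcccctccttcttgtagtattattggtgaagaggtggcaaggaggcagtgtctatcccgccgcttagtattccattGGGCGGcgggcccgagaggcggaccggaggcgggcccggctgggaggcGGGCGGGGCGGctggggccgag

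No motif was shared by all 5 windows. CAGCTG was found in those of Plxnb3 and Sema4d, ACAAAG in those of Plxnb3 and Sema3d, and GGGCGG in those of Sema5a and Sema6c, while TATAAA was in none. Over all 32851 listed promoters, 16.3% held CAGCTG, 18.7% ACAAAG, 35.7% GGGCGG and 13.6% TATAAA. Over the 26 members with an entry, one promoter each, CAGCTG was in 19.2%, ACAAAG in 26.9%, GGGCGG in 76.9% and TATAAA in 0%. The windows differed in CG dinucleotides, with 23 each for Sema5a and Sema6c, 8 for Sema3d, 4 for Plxnb3 and 2 for Sema4d, where the median was 23.0 over the members and 7.0 over all promoters. A match describes these letters only.

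Among the class 3 semaphorins, Sema3d rose and Sema3a fell. Sema3d, a secreted semaphorin (GeneID 108151, chr5:12383163-12588953, plus strand), had 2.56, 1.56, 1.84 and 1.51 CPM at E18, 9.32, 4.56, 6.66 and 5.74 CPM at P4, 21.3, 10.1, 18.6 and 20.8 CPM at P10 and 62.5, 25.7, 48.8 and 35.3 CPM at P16. No library overlapped between adjacent ages in this stretch. It rose by 1.82 at P4 (SE 0.28, adjusted p = 0.00341), by 1.45 at P10 (SE 0.28, adjusted p = 0.00436) and by 1.25 at P16 (SE 0.29, adjusted p = 0.0142) on the log2 scale. The level was 38.2 ± 1.36 CPM at P20, 32.4 ± 10.1 at P27 and 23.8 ± 3.26 at P32 (mean ± SD, n = 4 per age here and below), with no call between them. At P32 it was 12.6 times the E18 level (log2 fold change 3.66, SE 0.30, adjusted p = 7.87e-11).

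Sema3a, a repulsive cue for many axons (GeneID 20346, chr5:13125376-13606234, plus strand), had 18.5, 14.0, 24.0 and 16.1 CPM at E18, 17.97, 5.24, 17.1 and 11.8 CPM at P4, 4.33, 2.63, 2.64 and 2.01 CPM at P10 and 3.52, 1.44, 3.90 and 3.71 CPM at P16. P4 library 4 was the lowest of its age and still above every P10 library. Sema3a fell by 2.14 at P10 against P4 on the log2 scale (SE 0.38, adjusted p = 0.00265; not called in 1 fit of all 28 libraries, adjusted p = 0.0676). The P4 level passed against E18 only with the block (adjusted p = 0.464 without and 0.0430 with it). Its P32 libraries held 6.57, 0.742, 2.34 and 0 CPM, and at P27 library 6 was also at 0. Those zeros stand in the 2 libraries with the fewest detected genes. At P32 against E18 the log2 fold change was -2.89 (SE 0.79, adjusted p = 0.00353), with no overlap between the libraries of the ages.

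Sema3f, which binds Nrp2 (GeneID 20350, chr9:107681499-107710475, minus strand), had 11.01, 15.1, 8.34 and 11.4 CPM at P16, against 22.9, 28.6, 19.9 and 23.0 CPM at P10. It fell by 1.05 on the log2 scale (SE 0.22, adjusted p = 0.00839; 0.0514 in 1 fit of all 28 libraries), with every P16 library below every P10 library. At P32 it was 9.87 ± 4.11 CPM, against 23.9 ± 1.62 CPM at E18 (log2 fold change -1.27, SE 0.35, adjusted p = 0.00365). Sema3c, another secreted class 3 ligand, was called in no adjacent interval and had 38.6, 15.6, 14.7 and 25.5 CPM at P32, against 11.8, 7.99, 10.7 and 7.80 CPM at E18 (log2 fold change 1.30, SE 0.43, adjusted p = 0.0146). Library 3, which stood apart by its neuron markers, was the highest at P32, and without it Sema3c was not called (adjusted p = 0.0557). Sema3e, the ligand of Plxnd1, had its highest mean at P10 (37.5 ± 12.3 CPM) and its lowest at P27 (14.2 ± 5.04 CPM). It was called only with the block, at P4 against E18 (28.7 ± 8.47 CPM at P4, against 19.7 ± 7.10 CPM at E18; blocked adjusted p = 0.00329, 0.275 without the block). Sema3b and Sema3g were low throughout, with age means of 2.27 to 5.19 CPM and 4.91 to 8.84 CPM, and were called in no comparison.

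In class 4, Sema4d rose and Sema4c and Sema4b fell. Sema4d, a membrane-bound ligand of Plxnb1 that oligodendrocytes are known to make (GeneID 20354, chr13:51685522-51793747, minus strand), had 48.0, 45.5, 47.7 and 41.9 CPM at P4, 118, 108, 90.9 and 113 CPM at P10 and 364, 289, 278 and 294 CPM at P16. No libraries of these ages overlapped. It rose by 1.25 at P10 (SE 0.14, adjusted p = 0.000135) and by 1.497 at P16 (SE 0.17, adjusted p = 0.000151) on the log2 scale. The P4 mean of 45.8 ± 2.81 CPM, against 36.7 ± 4.42 CPM at E18, was called only with the block (adjusted p = 0.217 without and 0.0139 with it). After P16 the mean was 258 ± 24.1 CPM at P20, 215 ± 54.9 at P27 and 175 ± 27.2 at P32, with no call between neighbouring ages. A same-strand predicted gene, Gm19281, overlaps Sema4d, and its reads may not be separable.

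Sema4c, a ligand of Plxnb2, went the other way early. Its libraries held 68.8, 81.0, 77.2 and 101 CPM at E18, 43.6, 51.8, 48.0 and 58.7 CPM at P4 and 36.4, 29.5, 29.6 and 33.0 CPM at P10, without overlap between neighbouring ages. It fell by 0.69 at P4 (SE 0.17, adjusted p = 0.0329) and by 0.63 at P10 (SE 0.15, adjusted p = 0.0124) on the log2 scale. The P4 call was lost when E18 library 5 or 6, or any 1 P4 library, was left out (adjusted p = 0.05005 to 0.0986). From P10 to P20 the means stayed between 32.1 and 32.4 CPM. Sema4b fell at P16 (22.5 ± 3.57 CPM at P16, against 34.6 ± 3.40 CPM at P10; log2 fold change -0.63, SE 0.18, adjusted p = 0.0357), a call lost without P10 library 4, 5 or 6 or P16 library 3 or 5 (highest adjusted p = 0.120). Sema4f was called at no single interval but was lower at P32 than at E18 (26.4 ± 6.21 CPM, against 51.1 ± 9.08 CPM; log2 fold change -0.95, SE 0.20, adjusted p = 0.000316). Sema4a (age means 38.2 to 56.5 CPM) and Sema4g (91.7 to 131 CPM) were called in no comparison.

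Class 5 semaphorins, membrane proteins with thrombospondin repeats, were higher at P10. Sema5a (GeneID 20356, chr15:32244742-32696341, plus strand) had 94.98, 106, 67.2 and 97.1 CPM at P4, 250.1, 249, 293 and 263 CPM at P10 and 394, 377, 471 and 501 CPM at P16, with no overlap between these ages. It rose by 1.55 at P10 (SE 0.16, adjusted p = 0.000100) and by 0.71 at P16 (SE 0.17, adjusted p = 0.0146) on the log2 scale. The P16 call was lost without P10 library 3, 4 or 6 (adjusted p = 0.0517, 0.0510 and 0.0597) and with total-count scaling (0.0543). Earlier, Sema5a had 91.2 ± 16.6 CPM at P4, against 59.1 ± 9.96 CPM at E18 (adjusted p = 0.0560, and 0.00414 with the block). That difference passed without E18 library 3 or P4 library 5, and with the DESeq2 Wald test (0.0197). The level then ran from 334 to 356 CPM over P20, P27 and P32, and P32 library 3 was the lowest of its age (182 CPM, where the others held 349 to 414 CPM). Sema5b had 26.8 ± 1.94 CPM at P10, against 15.98 ± 1.45 CPM at P4 (log2 fold change 0.77, SE 0.15, adjusted p = 0.00474; 0.0984 in 1 fit of all 28 libraries). At P32 its mean was 11.4 ± 5.95 CPM, and it was not called against E18 (adjusted p = 0.535).

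Class 6 semaphorins, transmembrane cues of class A plexins, moved in opposite directions. Sema6c (GeneID 20360, chr3:95160420-95174050, plus strand) had 72.0, 79.0, 83.3 and 112 CPM at E18, 52.8, 60.6, 51.0 and 70.9 CPM at P4, 27.8, 32.4, 35.1 and 34.0 CPM at P10 and 24.1, 18.7, 16.3 and 21.9 CPM at P16. It fell by 0.84 at P10 (SE 0.15, adjusted p = 0.00280) and by 0.69 at P16 (SE 0.18, adjusted p = 0.0266) on the log2 scale, without overlap. The P16 call was lost without any of 6 libraries (P10 libraries 4, 5 and 6 and P16 libraries 4, 5 and 6; adjusted p = 0.0509 to 0.0836) and in 1 fit of all 28 libraries (0.146). The P4 level differed from E18 with the block (adjusted p = 0.00105) and in the DESeq2 Wald test (0.0432), but not by the fit without the block (0.106). P32 library 3 held 36.5 CPM, where the others held 10.1 to 18.3 CPM.

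Sema6d rose at P10 (233 ± 9.72 CPM at P10, against 160.1 ± 14.8 CPM at P4; log2 fold change 0.56, SE 0.12, adjusted p = 0.00877) and was higher at P32 (210.1 ± 29.9 CPM) than at E18 (119 ± 20.8 CPM; log2 fold change 0.82, SE 0.14, adjusted p = 2.77e-05). Its P4 level was called against E18 only with the block (adjusted p = 0.00574; 0.121 without). Sema6a had its highest mean at P16 (340.4 ± 57.9 CPM at P16, against 230.0 ± 21.0 CPM at P10), where it missed the threshold (adjusted p = 0.0639) and passed without P16 library 5, with the DESeq2 Wald test (0.0169) and in 1 fit of all 28 libraries (0.0447). Against E18, its P4 level passed only with the block (209 ± 25.2 CPM at P4, against 163 ± 42.8 CPM at E18; adjusted p = 0.0181; 0.273 without). Sema6b had age means of 90.3 to 142 CPM, and its P10 level was called against P4 with the block (adjusted p = 0.0284; 0.217 without). At P32 against E18 it was not called (adjusted p = 0.101) but passed without E18 library 6 (0.0270) or P32 library 3 (0.0404). A pair of genes, 4930517E11Rik and 4930583P06Rik, overlap Sema6d on the opposite strand, and reads of such pairs may not be separable, since strand use in counting was not stated. Opposite-strand genes also overlap Nrp1, Nrp2, Plxna2, Plxnb1, Sema5a and Sema5b.

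Sema7a, the lipid-anchored ligand of Plxnc1, was higher at P32 than at E18. Its libraries held 118, 165, 147 and 159.9 CPM at P32, against 63.8, 58.6, 51.3 and 61.2 CPM at E18. Every P32 library was above every E18 library (log2 fold change 1.33, SE 0.24, adjusted p = 3.63e-05). No adjacent interval gave a call, with adjusted p = 0.141 at P4 (called with the block, 0.0138) and 0.105 at P16. The P16 libraries split, with 75.0 and 77.6 CPM in libraries 3 and 4, and 132 and 172 CPM in libraries 5 and 6. Without P16 library 3, Sema7a passed at P16 (adjusted p = 0.0301).

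**Figure D3:**
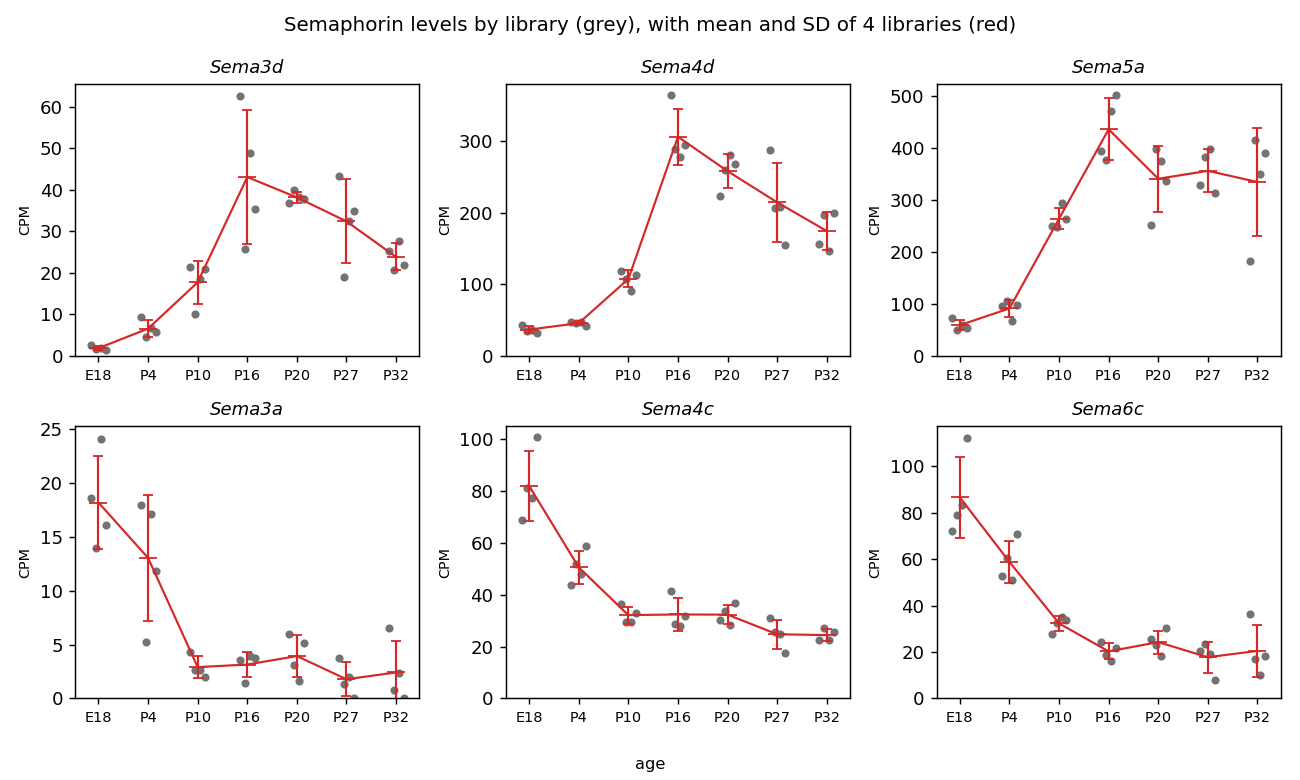
Levels (CPM, linear axis from 0) of 6 semaphorins by age. Grey points are single libraries, and red marks are the mean and SD of 4 libraries. Sema3d, Sema4d and Sema5a have their highest mean at P16, and Sema3a, Sema4c and Sema6c at E18.

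Myelinating oligodendrocyte and oligodendrocyte precursor markers moved over the same intervals as Sema3d, Sema4d, Sema5a and Plxnb3. Of 11 myelinating oligodendrocyte markers 10 rose at P10 and 11 at P16, and their summed level was 151 to 203 CPM at P4, 2250.1 to 2841 CPM at P10 and 19498 to 43073 CPM at P16. Of 8 precursor markers, 8 rose at P4, 7 at P10 and 3 at P16, with sums of 176 to 241 CPM at E18, 461 to 555 at P4, 1146 to 1306 at P10 and 1389 to 1729.5 at P16. Astrocyte markers rose as well, 7 of 10 at P4, 7 at P10 and 4 at P16, with sums of 309 to 517 CPM at E18, 905 to 1325 at P4, 3114 to 3829 at P10 and 5709.6 to 6799.9 at P16. Of 10 microglia markers, 7 rose at P4, 4 at P10 (6 with the block) and 1 at P16, with sums of 56.8 to 84.4 CPM at E18, 126 to 162 at P4, 209.9 to 247 at P10 and 251 to 307 at P16. No marker of these 4 lists was at 0 in all libraries of an age. The library highest in the myelin sum was also the highest in Plxnb3 in 4 of the 7 ages, in Sema4d in 4 and in Sema3d in 2, a comparison chosen after the values were seen. The library lowest in that sum was also the lowest in Plxnb3 in 2 of the 7 ages, in Sema4d in 1 and in Sema3d in 2. For Sema5a the highest library was at no age the one highest in the myelin sum. At P4 library 5, the highest in that sum, was the lowest in Sema5a (67.2 CPM). At P16 library 3, the highest in that sum, held 394 CPM of Sema5a, where library 6 held 501 CPM. The part of these markers in the results was not tested.

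The neuropilins, co-receptors of secreted semaphorins and of vascular endothelial growth factor, both fell at P10. Nrp1 had 57.9 ± 14.8 CPM at P10, against 97.1 ± 22.7 CPM at P4 (log2 fold change -0.72, SE 0.22, adjusted p = 0.0402), and Nrp2 had 31.9 ± 8.85 CPM at P10, against 60.1 ± 14.6 CPM at P4 (log2 fold change -0.89, SE 0.23, adjusted p = 0.0205). Libraries of P10 and P4 overlapped for both genes. The Nrp1 call was lost without P10 library 4 or 6 or P4 library 5 or 6 (highest adjusted p = 0.126), and the Nrp2 call without P10 library 4 or 6 or P4 library 6 (highest adjusted p = 0.0720) and in 1 fit of all 28 libraries (0.0621). At P16 against P10 neither was called, and Nrp2 passed without P16 library 3 (adjusted p = 0.0171). The P32 libraries of both genes were all below those of E18 (-1.19 for Nrp1, adjusted p = 0.000274, and -1.45 for Nrp2, adjusted p = 0.000534). For Nrp2, P32 library 3 held 45.6 CPM, where the others held 13.8 to 19.7 CPM.

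Of the class A plexins, the signalling partners of neuropilins and the direct receptors of class 6 ligands, Plxna1 and Plxna3 fell at P16. Plxna1 (GeneID 18844, chr6:89316313-89362613, minus strand) had 130.2, 204, 115 and 228 CPM at P16, against 377, 535, 308 and 417 CPM at P10. No libraries overlapped, and the gene fell by 1.28 on the log2 scale (SE 0.25, adjusted p = 0.00585). Its means of 472 CPM at E18, 487 at P4 and 409 at P10 gave no call between neighbouring ages. At P32 Plxna1 was 114 ± 23.5 CPM, against 472 ± 46.1 CPM at E18 (log2 fold change -2.05, SE 0.21, adjusted p = 7.06e-09).

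Plxna3 (GeneID 18846, chrX:74329055-74344689, plus strand) had 49.3, 41.1, 27.9 and 40.0 CPM at P16, against 132, 103, 83.8 and 107 CPM at P10. Every P16 library was below every P10 library, and the gene fell by 1.44 on the log2 scale (SE 0.21, adjusted p = 0.000864). Plxna2 had 96.7, 226, 62.5 and 166 CPM at P4, a spread that reached from the P10 range to above every E18 library. At P10 against P4 its log2 fold change was -0.96 (SE 0.33, adjusted p = 0.0636), and it passed without P4 library 5 (adjusted p = 0.0104), with total-count scaling (0.046), with the DESeq2 Wald test (0.0204) and in 1 fit of all 28 libraries (0.0364). Plxna2 was lower at P32 (65.4 ± 26.9 CPM) than at E18 (168 ± 24.7 CPM; log2 fold change -1.36, SE 0.31, adjusted p = 0.000719). Plxna4 was called in no comparison, with age means between 149.8 and 187 CPM and a log2 fold change of -0.0060 (SE 0.17) at P32 against E18. An opposite-strand gene, Plxna4os1, overlaps Plxna4.

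Immature neuron markers fell over the same intervals as Sema3a, Sema6c and the neuropilins (P10) and Sema6c, Plxna1 and Plxna3 (P16). Of the 9 tested, 3 fell at P4 (7 with the block) and 8 at P10, and 7 of 8 fell at P16, with summed levels of 7603 to 10417 CPM at E18, 5663 to 7874 CPM at P4, 2264 to 2650.2 CPM at P10 and 611 to 1404 CPM at P16. No marker of the list was at 0 in all libraries of an age. Their part in the results was not tested.

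Of the class B plexins, the receptors of class 4 semaphorins, Plxnb3 rose, Plxnb2 fell and Plxnb1 was not called. Plxnb3, a receptor of Sema5a known from oligodendrocytes, gave the largest changes among the 31 genes. It (GeneID 140571, chrX:73756559-73772510, plus strand) had 1.92, 4.601, 2.97 and 4.13 CPM at E18, 4.38, 4.18, 5.69 and 3.16 CPM at P4, 91.7, 52.8, 45.2 and 61.6 CPM at P10 and 303, 147, 123 and 151 CPM at P16. Every P10 library was above every P4 library, and P16 and P10 did not overlap either. It rose by 3.88 at P10 (SE 0.27, adjusted p = 9.06e-06), a 14.8-fold higher level, and by 1.51 at P16 (SE 0.30, adjusted p = 0.00614) on the log2 scale. At P16 library 3 held 303 CPM and was also the highest in the myelin marker sum (43073 CPM), while library 5, the second highest in that sum (33903 CPM), was the lowest in Plxnb3. Without library 3 the P16 log2 fold change was 1.14. At P32 the level was 144 ± 44.4 CPM, 42.6 times that at E18 (log2 fold change 5.41, SE 0.42, adjusted p = 2.74e-11).

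Plxnb3 and Plxna3 lie on the X chromosome, and the libraries of P10, P16, P20, P27 and P32 were of both sexes by their sex-linked reads. The P10 libraries with Xist (3 and 5) held 91.7 and 45.2 CPM of Plxnb3, and those with Y-linked reads (4 and 6) lay between these values. For Plxna3 the P10 libraries with Xist held 132 and 83.8 CPM, again on either side of libraries 4 and 6. At P32 the libraries with Xist (3 and 5) held 128 and 88.9 CPM of Plxnb3. Those with Y-linked reads (4 and 6) were higher, at 175 and 185 CPM. For Plxna3 the P32 libraries with Xist held 49.4 and 21.0 CPM, on either side of libraries 4 and 6. The P16 library with Xist (6) held 151 CPM of Plxnb3 and 40.0 CPM of Plxna3. Those with Y-linked reads (3, 4 and 5) held 123 to 303 and 27.9 to 49.3 CPM. At P20 library 3, the one with Y-linked reads, held 240 CPM of Plxnb3, where the others held 151 to 278 CPM. That library was the highest of P20 in Plxna3 (48.5 CPM). At P27 library 3, with Y-linked reads and almost no Xist, was the highest in both (249.8 and 51.1 CPM). The part of sex in these levels was not tested. Plxnb2, a receptor of Sema4c, fell at P16 (72.9 ± 9.40 CPM at P16, against 106 ± 8.57 CPM at P10; log2 fold change -0.56, SE 0.16, adjusted p = 0.0354), but not without P10 library 3, 4 or 6 or P16 library 3 or 5 (highest adjusted p = 0.105), nor in 1 fit of all 28 libraries (0.0519). It was also called at P4 with the block or the DESeq2 Wald test (122 ± 7.38 CPM at P4, against 158 ± 7.37 CPM at E18; adjusted p = 0.00908 and 0.0248; 0.111 without). Plxnb1, the receptor of Sema4d, was called in no comparison, with age means of 127 to 161 CPM.

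Plxnd1, the receptor of Sema3e with a main role in endothelial cells, had its highest mean at P10. It (GeneID 67784, chr6:115954811-115995005, minus strand) had 30.7, 35.1, 16.7 and 36.5 CPM at P4, against 16.7, 10.03, 17.4 and 14.0 CPM at E18. P4 library 5 lay within the E18 range, and the other 3 were above it. Plxnd1 rose by 1.05 on the log2 scale (SE 0.26, adjusted p = 0.0346), but leaving out any library other than P4 library 5 ended the call (adjusted p = 0.0552 to 0.105), as did total-count scaling (0.0598). At P10 it had 67.2, 57.9, 30.5 and 50.9 CPM, which was called against P4 only with the block (adjusted p = 0.0584 without, 0.000699 with), with the DESeq2 Wald test (0.0264) or without P10 library 5 (0.0200). At P32 it was 18.8 ± 2.54 CPM and was not called against E18 (14.5 ± 3.33 CPM; adjusted p = 0.325).

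Endothelial and pericyte markers stand beside the Plxnd1 values. At P4 none of 12 rose and 2 fell (2 and 2 with the block), with sums of 258 to 324 CPM at P4, against 291 to 343 CPM at E18. At P10 4 of 12 rose (7 with the block), with a sum of 312 to 734 CPM. The mean sum was 477 CPM at P10, 534 at P16, 648 at P20, 532 at P27 and 503 at P32. Plxnd1 means were 51.6, 29.7, 26.5, 23.0 and 18.8 CPM at these ages. Plxnd1 was called at P16 against P10 only with the block (log2 fold change -0.81, adjusted p = 0.119 without and 0.00978 with it). The library lowest in Plxnd1 was also the lowest in the endothelial sum in 6 of the 7 ages. The highest in Plxnd1 was the highest in that sum in 2. The comparison was made after the values were seen. The shared lowest library was library 5 at P4, P10, P16, P20 and P32. At P27 it was library 6, the one with the fewest detected genes. With 1 number recurring, the 6 ages may not be separate cases. Of 8 meningeal and fibroblast markers none was called at P4, but 7 were higher with the block, and they had sums of 301 to 713 CPM at P4, against 157 to 351 CPM at E18. No marker of either list was at 0 in all libraries of an age. The part of either list in the Plxnd1 values was not tested.

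Plxnc1, the receptor of Sema7a, had its highest mean at E18 and was called lower only over the whole span without the block. Its libraries held 47.6, 44.6, 54.2 and 44.6 CPM at P32, against 147, 117, 138 and 149 CPM at E18 (log2 fold change -1.53, SE 0.18, adjusted p = 4.44e-08). The adjusted p at P4 against E18 was 0.339, and 0.0360 with the block. At P10 against P4 it was 0.0765, and 0.0167 with the block, 0.0485 with the DESeq2 Wald test and 0.0297 in 1 fit of all 28 libraries. From P16 on its age means were 46.9 to 52.8 CPM.

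**Figure D4:**
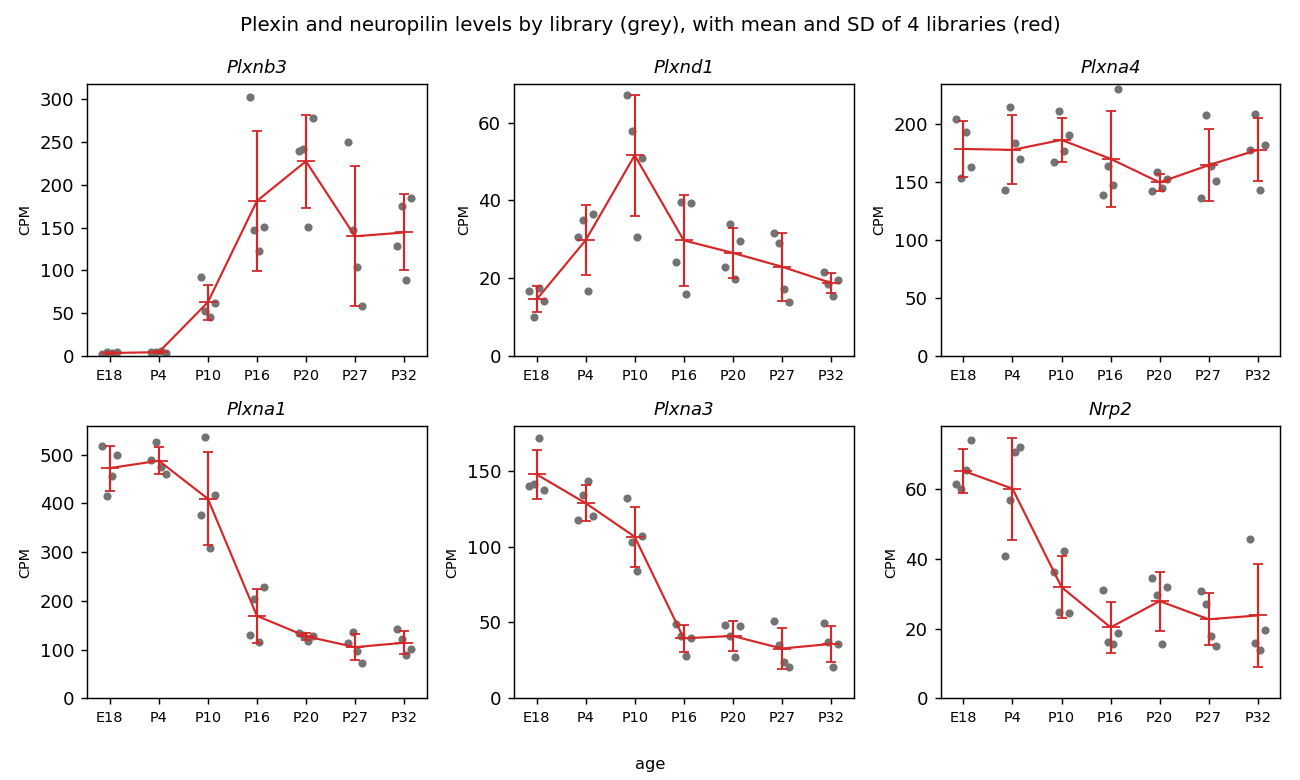
Levels (CPM, linear axis from 0) of 5 plexins and Nrp2 by age. Grey points are single libraries, and red marks are the mean and SD of 4 libraries. Plxnb3 is near 0 at E18 and P4 and highest at P20, Plxnd1 is highest at P10, Plxna4 has age means of 149.8 to 187 CPM, and Plxna1, Plxna3 and Nrp2 have lower means from P16 on than at E18.

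Compared per length (CPM per kilobase of exon, the scale used for every comparison between genes), the leading members changed with age. At E18 Plxna1 led at 52.3 ± 5.11, followed by Plxnb2 at 23.3 ± 1.09 and Sema6a at 21.4 ± 5.63, the last 2 within their spread of each other. At P16 the leaders were Sema6a at 44.7 ± 7.61, Sema4d at 41.8 ± 5.33 and Sema5a at 39.3 ± 5.40, which lay within their SD of each other. At P32 Sema7a was highest at 43.8 ± 6.24, followed by Sema5a at 30.2 ± 9.44 and Sema6b at 26.98 ± 3.29. At E18 Sema3d (0.281 ± 0.0728) and Plxnb3 (0.422 ± 0.149) were at the bottom, and at P32 Sema3a was (0.223 ± 0.271).

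The summed per-length level of the 20 ligands was 177 ± 13.0 at E18, 298 ± 29.0 at P16 and 238 ± 23.2 at P32, while that of the 11 receptors was 180.3 ± 13.2, 111 ± 18.3 and 96.9 ± 16.6 at the same ages. Ligands thus made up 49.5 ± 1.53% of the total at E18, 61.2 ± 2.02% at P10, 73.0 ± 2.95% at P16 and 71.1 ± 4.23% at P32. Class A plexins held 28.4 ± 1.22% at E18, 21.4 ± 2.07% at P10 and 10.6 ± 1.79% at P16. Class 5 semaphorins held 10.6 ± 1.13% at P16, against 2.15 ± 0.152% at E18, and Sema7a 13.1 ± 1.69% at P32, against 4.90 ± 0.496% at E18. Class 3 semaphorins stayed at 3.98% to 5.13% over the 7 ages although Sema3a and Sema3d moved in opposite directions. The shares depend on the length scaling: on the CPM scale class A plexins held 16.5% at P32, against 37.3% at E18, and Sema7a held 6.19% at P32, against 2.27% at E18.

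**Figure D5:**
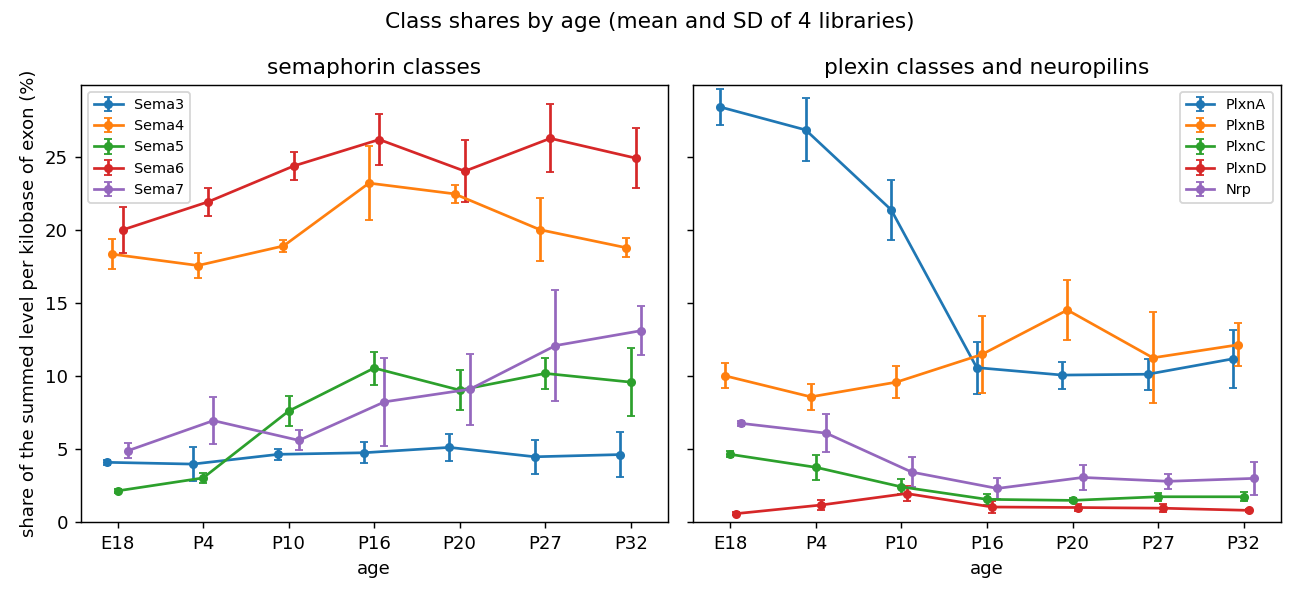
Share of each class in the summed per-length level of the 31 genes (%, linear axis from 0) by age, for the semaphorin classes (left) and the plexin classes and neuropilins (right). Points and bars are the mean and SD of 4 libraries. Class A plexins have 10.6 ± 1.79% at P16, against 28.4 ± 1.22% at E18, and Sema7a has 13.1 ± 1.69% at P32, against 4.90 ± 0.496% at E18.

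Ratios of a ligand to its receptor were taken within each library on the per-length scale, which removes the scaling between libraries. Sema7a over Plxnc1 was 1.06 ± 0.133 at E18, 2.43 ± 0.704 at P10, 5.33 ± 1.72 at P16 and 7.68 ± 1.51 at P32, with no overlap between the E18 and P32 libraries. Sema5a over Plxnb3 was 14.9 ± 8.97 at E18, 16.3 ± 5.80 at P4, 3.31 ± 1.13 at P10 and 2.00 ± 0.801 at P16, and the Plxnb3 level at E18 and P4 was its lowest. Within class A, Plxna1 over Plxna4 was 3.72 ± 0.428 at E18, 1.38 ± 0.269 at P16 and 0.899 ± 0.156 at P32. Nrp1 over Nrp2 was 2.74 ± 0.676 at P32, where library 3 had the lowest ratio, against 2.03 ± 0.228 at E18.

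After P16 no member was called between neighbouring ages. edgeR called 0 of 17949 genes at P20 against P16, 0 of 18070 at P27 against P20 and 0 of 17856 at P32 against P27 (0% in each direction), with 485, 476 and 73 genes at an unadjusted p under 0.05. Of the members 0, 3 and 0 were at that level, the 3 being Sema3b (0.95), Sema3e (-0.62) and Sema5b (-0.78) by log2 fold change at P27 over P20. The DESeq2 Wald test called 0, 7 and 0 genes, none of them a member. Plxnb3 varied widely within an age in this period, with 249.8, 147, 104 and 58.6 CPM at P27, where the lowest, library 6, was also the one with the fewest detected genes. Sema4d had mean levels of 306, 258, 215 and 175 CPM at P16, P20, P27 and P32.

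Other genes of the pathway were counted from lists of co-receptors and of intracellular effectors. Of 14 co-receptors tested, 1 rose at P4 (3 with the block), 3 rose and 4 fell at P10 (6 and 5 with the block), and 2 fell at P16, while 3 were higher and 6 lower at P32 than at E18. Over all genes, 4.75% rose at P4 (15.8% with the block), and 10.3% rose and 8.16% fell at P10 (18% and 18.1% with the block). At P16 5.65% fell, and 23.4% were higher and 24.1% lower at P32 than at E18. The largest fall of a co-receptor at P10 was that of Chl1, an adhesion molecule that binds neuropilin-1, with 375 ± 93.6 CPM at P10, against 878 ± 127 CPM at P4 (log2 fold change -1.20, SE 0.20, adjusted p = 0.00177), and it fell again at P16 (log2 fold change -1.42). Sdc3, a heparan sulphate proteoglycan that can bind semaphorins, fell at P10 (-0.82) and at P16 (-1.07), the P16 call being lost on leaving out 1 library (adjusted p = 0.0547). Cspg4, a proteoglycan of oligodendrocyte precursors and pericytes, rose at P4 (0.78; highest adjusted p on leaving out 1 library 0.0525) and P10 (1.26). Flt1, a receptor of vascular endothelial growth factor that is also among the endothelial markers, rose at P10 (1.55), as did Cntn2, an axonal adhesion molecule (0.74), while Cd72, the Sema4d receptor of B cells, fell (-0.84; lost without any of 6 libraries, highest adjusted p = 0.105). Met, the growth factor receptor that pairs with plexin B, was lower at P32 than at E18 (-2.08; lost without any of 4 libraries, highest adjusted p = 0.0974). The median log2 fold change of the list at P32 over E18 was -0.49, beside -0.038 over all genes.

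Of 25 effectors tested, 1 rose at P4 (4 with the block), 3 rose and 5 fell at P10, and 2 rose and 5 fell at P16, while 7 were higher and 9 lower at P32 than at E18 (median log2 fold change -0.12). The shares over all genes were 4.75% higher at P4 (15.8% with the block), 10.3% higher and 8.16% lower at P10, and 6.2% higher and 5.65% lower at P16, with those for P32 as above. Of the collapsin response mediator proteins, cytoplasmic effectors of Sema3a, Dpysl3, Dpysl5 and Crmp1 gave the largest falls. Dpysl2, of the same family, was called in no adjacent interval. It was lower at P32 than at E18 (log2 fold change -0.74; highest adjusted p on leaving out 1 library 0.0674). Dpysl3 had 1032 ± 36.9 CPM at P10, against 2585 ± 80.2 CPM at P4 (log2 fold change -1.30, SE 0.14, adjusted p = 0.000153), and fell again at P16 (log2 fold change -2.06). Dpysl5 had 86.3 ± 39.2 CPM at P16, against 368 ± 46.0 CPM at P10 (log2 fold change -2.10, SE 0.30, adjusted p = 0.000709). Crmp1 fell by 1.01 at P10 and by 1.06 at P16 on the log2 scale, the P16 call being lost on leaving out any of 5 libraries (highest adjusted p = 0.127). Mical2, an enzyme that oxidises actin, rose at P4 (1.74) and at P10 (log2 fold change 2.21, SE 0.18, adjusted p = 3.14e-05). Fes, a kinase of plexin signalling, rose at P10 (1.61), as did Sh3bp1, a Rac-inactivating protein (1.24). Rras, a small GTPase that plexins inactivate, rose at P16 (1.27), as did the kinase Pak1 (0.74), calls that were lost on leaving out any of 5 libraries for Rras and any of 6 for Pak1 (highest adjusted p = 0.0939 and 0.114). In the 3 later intervals no gene of either list was called by edgeR.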

How the data were processed

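Genes were counted in 28 dLGN libraries, 4 per age. The deposited tables, a pair per comparison of adjacent ages, hold read counts per gene and library, which were merged by gene ID and used as they stand. They also hold the authors' fold change (a ratio, later over earlier age) and adjusted p-value, which were used only as an alternative. Exon length is the deposited Length column. A further 96 per-sample density columns were not used. Per the submitters' processing notes, BWA and edgeR 3.14.0 were used with GRCm38 (mm10). Annotation, counting tool and strand use: not given in the sources used here. Each gene listed in a comparison held at least 4 reads over its 8 libraries.

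Each pair of adjacent ages was fitted on its 8 libraries with edgeR 4.0.16 in R 4.3.3 (filterByExpr, TMM, two-sided quasi-likelihood F test, Benjamini-Hochberg adjustment over all genes tested). P32 against E18 was a contrast in 1 fit of all 28 libraries. Called means adjusted p under 0.05. Levels are CPM, TMM-scaled over the 28 libraries together. The columns carry numbers 3 to 6 that the labels do not explain, and the block is that number. Same-numbered libraries deviated together in every pair for P4 and E18 (r = 0.344, 0.642, 0.37 and 0.396) and for P10 and P4 (0.327, 0.434, 0.146 and 0.198). Some differently numbered libraries did so too. For P4 and E18, r was 0.269 for P4 library 3 with E18 library 5 and 0.285 for P4 library 5 with E18 library 3. For P10 library 3 with P4 library 5 it was 0.208. The remaining differently numbered pairs ran from -0.443 to 0.057 and from -0.31 to 0.029 in these intervals. No 2 libraries of an age agreed within sampling noise (lowest chi-square per degree of freedom 25.7). Alternatives were DESeq2 1.42.0, limma-voom (limma 3.58.1), other scalings, no filter, 1 fit of all libraries, the block, and each library left out. The tests were run on simulated counts built from the P10 and P4 libraries, without pairing by number. That check required only that median log2 fold changes came near the simulated ones. It did not cover the contrast of P32 and E18. Named members are all 31, with values per library where a call had a log2 fold change of at least 1. The members and lists were chosen with earlier results of these data known. P-values weigh the difference between ages against the spread between libraries as estimated by each fit, and floors cover counting error only.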

Additional observations from a re-analysis of the deposited data

Results flagged for a closer look

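Of 217 sets of 4 libraries (a gene at an age), 6 held a library flagged by Dixon's rule. Its gap to its nearest neighbour, divided by the range of the 4, exceeded the 95% critical value for 4 samples. Chance flags about 1 in 20 sets. Plxnb3 in P16 library 3 was 303.3 CPM, where the others held 123 to 151 CPM. Plxna3 in E18 library 5 was 172 CPM, where the others held 137 to 141 CPM, and that library also had the highest choroid plexus sum (1139 CPM). Sema6b in E18 library 6 was 122 CPM, where the others held 76.9 to 83.7 CPM, and Sema4g in the same library was 64.7 CPM, where the others held 102 to 108 CPM. Sema3a in P16 library 4 was 1.44 CPM, where the others held 3.52 to 3.90 CPM, and Sema3b in P4 library 3 was 3.74 CPM, where the others held 2.57 to 2.62 CPM. Without E18 library 6, Sema6b was called at P32 against E18 (adjusted p = 0.0270). Causes were not tested.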

How the results depend on the processing

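No direction of a member's called change was reversed under any alternative run. Counts of members called moved by over 1.5 times in these cases. Higher at P4 against E18, 2 became 1 with total-count scaling, 8 with the replicate block (column number) and 1 to 3 on leaving out each library. Lower at P4, 1 became 3 with the DESeq2 Wald test, 5 with the block and 0 to 1 on leaving out libraries. Lower at P10, 5 became 3 to 6 on leaving out libraries. Lower at P16, 6 became 3 in 1 fit of all 28 libraries and 3 to 5 on leaving out libraries. Over all genes, the DESeq2 Wald test called 1324 higher and 965 lower at P4, against 893 and 586 in the main fit. The fit of all 28 libraries called 1274 and 903 at P16, against 1084 and 987. The cause was not tested. At P16 against P10 the numbers do not pair the libraries (r = 0.322, 0.206, 0.187 and 0.037 for numbers 3 to 6, the last under the limit of 0.1), and the block added Nrp2 and Plxnd1 (lower) and Sema3c and Sema6a (higher). At P32 against E18 (r = -0.036 for number 5) it added Sema6b. In the other intervals it called no member. Over all genes the block called 1725 higher and 1674 lower at P16 (against 1084 and 987 in the main fit). At P32 against E18 it called 5232 and 5691 (against 4675 and 4824). Scaling by relative log expression, no filter and, between neighbouring ages, limma-voom changed no call of a member. By the adjusted p in the authors' deposited table, 2 members were higher and 1 lower at P4, 7 and 6 at P10, and 4 and 5 at P16. The share of all genes called by that adjusted p was not counted.

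Without length scaling, class shares at P32 were 16.5% (plexin A), 14.6% (plexin B), 15.7% (Sema4), 14.5% (Sema5) and 6.19% (Sema7). At E18 they were 6.59% (neuropilins), 37.3% (plexin A), 11.1% (plexin B), 5.30% (plexin C), 3.20% (Sema3), 13.2% (Sema4), 2.79% (Sema5), 17.7% (Sema6) and 2.27% (Sema7). Total-count scaling put the median log2 fold change of all genes at -0.12 for P4 over E18 and at -0.28 for P32 over E18, where TMM gave -0.022 and -0.038, and members' values moved with it. Sema3a was at 0 in P27 library 6 and P32 library 6, where 3 counts stand for 0.0955 and 0.142 CPM, while shallower libraries of both ages held it, and the cause was not tested.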
